A study of Mus musculus with 18 samples.

Results

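The difference between Ldha knockout (KO) and wild-type (WT) macrophages, averaged over 3 culture conditions, was measured by RNA sequencing. For each of 6 mice, log2 of the normalized count plus 1 was averaged over the IFN-gamma, IL-4 and untreated libraries of that mouse, and the 3 KO means were set against the 3 WT means for each gene. All 18 of the 18 libraries of the series entered the comparison, as 6 animals, and 14288 of 21380 gene identifiers passed a filter on low values.

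The cells were bone marrow-derived macrophages, which are marrow progenitors grown into macrophages with macrophage colony-stimulating factor, here for 7 days. The groups were Ldha KO macrophages with IFN-gamma for 24 h, with IL-4 for 24 h and untreated, and WT macrophages with IFN-gamma, with IL-4 and untreated, with 3 animals each. The same 3 KO and 3 WT animals gave cells to each condition, and all were primary cultures from flushed femurs. The allele, any Cre driver, the strain background, the age and the sex of the mice are not given in the labels.

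Lactate dehydrogenase joins glycolysis to redox balance, since it turns pyruvate into lactate and in the same step turns NADH back into NAD+. The A subunit, from Ldha, and the B subunit, from Ldhb, form its tetramers. Macrophages given IFN-gamma are known for high glycolysis and nitric oxide production, and those given IL-4 for mannose receptor and lipid-handling genes. An average over both and over untreated cells keeps what the genotypes differed in under each condition and cancels changes of opposite sign.

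In the text an animal level is the geometric mean of the normalized count plus 1, less 1, over the 3 conditions of an animal. Levels are per gene, not per length, and are not compared between genes. A change is the KO minus WT difference of animal means on the log2 scale with its standard error (SE), n = 3 animals each. Tests are moderated two-sided limma tests with the Benjamini-Hochberg adjustment across the 14288 genes, and a gene passed at an adjusted p under 0.05. The libraries held 9772945 to 49537719 reads, the fewest in WT replicate 2 with IL-4. Chi-square per gene between replicates ran from 4.33 to 60.5, so no pair was a duplicate, and Xist, the RNA of the inactive X chromosome of female cells, was read at 11972 to 22656 normalized counts in every library. The macrophage genes Adgre1 and Cd68 were read in every animal, with levels of 45640.2 to 69553 and 37054 to 42765.

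The targeted gene was checked first. Ldha had animal levels of 4314, 4462 and 4804 in KO animals, against 21738, 22187 and 21363 in WT animals. Every KO animal stood far below every WT animal, and the KO level was 20.8% of the WT level (change -2.27 ± 0.06, adjusted p = 1.91e-07). The counts were not 0 in any KO library. The reads do not separate a shortened transcript from residual intact Ldha. The change was -1.97 with IFN-gamma, -2.51 with IL-4 and -2.32 untreated, and it varied with treatment (interaction adjusted p = 0.005). Ldhb, the other main subunit, had 106, 102 and 119 in KO animals, against 155, 129.9 and 142 in WT animals. Those animal levels did not overlap, and the change of -0.38 ± 0.12 did not pass (adjusted p = 0.0724).

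A larger change stood at Lyz2, which encodes the macrophage lysozyme. Lyz2 had 404, 428 and 409.8 in KO animals, against 395400, 368892 and 342062 in WT animals. The KO level was 0.112% of the WT level (change -9.79 ± 0.06, adjusted p = 2.99e-12), and it was low in each of the 9 KO libraries. Lyz2 is also the locus into which Cre is inserted in the widely used LysM-Cre mouse line, but the labels name no driver, so the loss of Ldha and the change at Lyz2 cannot be told apart as the source of any other difference. The neighbouring paralog Lyz1 was lower as well (change -0.58 ± 0.13, adjusted p = 0.0237), and since both genes are near-identical, reads could be split between them.

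Of 14288 genes, 1618 passed (11.3%): 904 were higher in KO macrophages (6.33%) and 714 lower (5%). Among the 1618 genes, 164 had a contrast of the other sign in a condition. Without the IFN-gamma libraries 523 genes passed, and 446 of these were among the 1618. Leaving out single animals gave 748 without KO replicate 1, 910 without KO replicate 2, 959 without KO replicate 3, 985 without WT replicate 2 and 743 without WT replicate 3. At least 2-fold changes numbered 293 higher and 45 lower, and at least 4-fold changes 59 higher and 2 lower, the lower ones being Lyz2 and Ldha. Where the mean of the higher genotype reached 100, the 2-fold counts were 99 higher and 23 lower. Quantile normalization gave 216 higher and 87 lower at 2-fold, and DESeq2 on reads summed per animal gave 271 higher and 113 lower. The median change of all genes was 0.01.

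**Figure D1:**
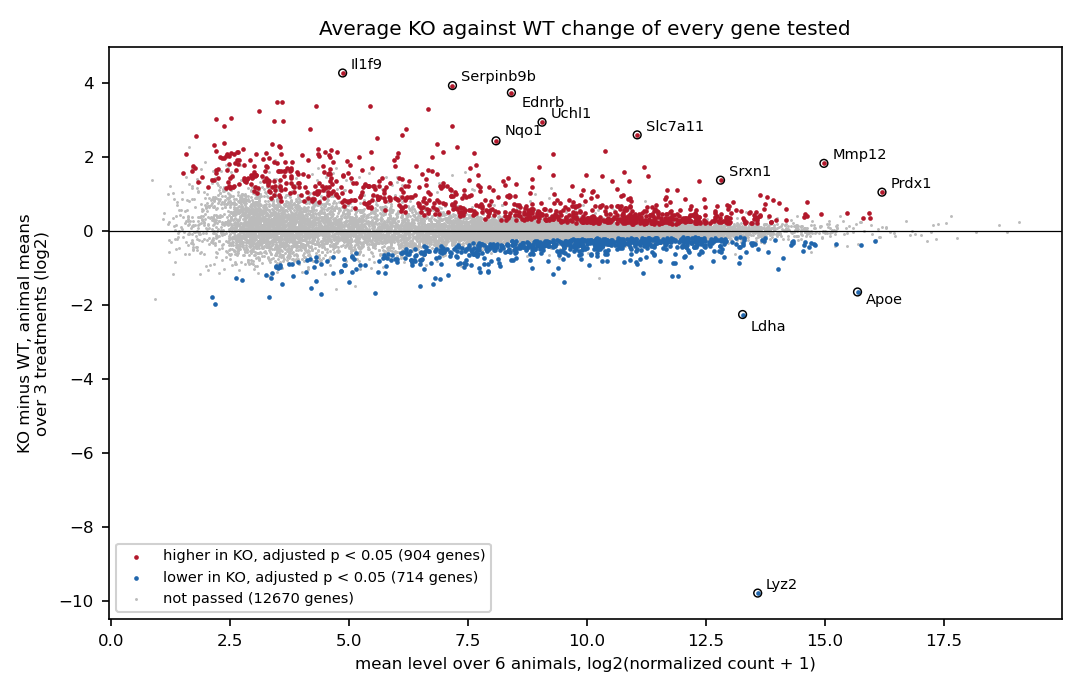
Each point is 1 of 14288 genes. The x axis is the mean level of the 6 animals on the log2(normalized count + 1) scale, and the y axis is the KO minus WT change on the log2 scale. Red points (904) passed as higher in KO macrophages, blue points (714) as lower and grey points did not pass; circles mark named genes. The red points reach further from 0 than the blue ones at all but the highest levels, apart from Lyz2 and Ldha.

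The animals did not contribute alike. KO replicate 2 was the KO animal nearest to the WT animals in 47.3% of the called genes, against 31.5% of all genes tested. KO replicate 1 was nearest in 19% of called genes, against 28.6% of all genes. Among WT animals the share of called genes lay between 31.6% and 34.9%, and for the 293 genes at least 2-fold higher it was 45.7% for WT replicate 1. Animal levels did not overlap for 4972 genes (34.8% of all). A stricter view asks for no overlap between the KO and WT libraries in each of the 3 conditions, in one direction. This held for 680 genes (4.76% of all) and for 577 of the 1618 called genes, 344 of them higher and 233 lower.

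NRF2 is the transcription factor that turns on glutathione, thioredoxin and NADPH-producing genes under electrophile or oxidant stress. Of 27 tested NRF2 targets, 20 were higher and 0 lower in KO macrophages, against 6.33% and 5% of all genes, and the median change was 0.65. The higher count was 16 to 20 without any 1 animal or condition, and 13 with edgeR on reads summed per animal. NRF2 targets were already known to differ in these data when the list was chosen, so the count is a description.

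Members for cystine supply and glutathione synthesis and recycling included Slc7a11, Gclm, Gclc and Gsr. Slc7a11, the cystine importer, had 5301, 4530.2 and 5986 in KO animals, against 1384, 674 and 708 in WT animals. WT replicate 1 was highest of the WT animals, yet each KO animal was more than 3-fold above it (change 2.59 ± 0.24, adjusted p = 0.000663). Gclm and Gclc encode the 2 subunits of glutamate-cysteine ligase, the rate-limiting step of glutathione synthesis. Gclm had 8516, 7366 and 9332 in KO animals, against 3790.4, 2925 and 3157 in WT animals (change 1.35 ± 0.11, adjusted p = 0.000363). The catalytic subunit Gclc changed by 0.94 ± 0.07, adjusted p = 0.000196, and Gsr, which reduces oxidised glutathione, by 0.81 ± 0.05, adjusted p = 0.00016. No animal levels overlapped in these 4 genes.

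Nqo1, the quinone reductase most used as a readout of NRF2, had 723, 466 and 753 in KO animals, against 144, 101 and 109.9 in WT animals. KO replicate 2 was the lowest of the KO animals and still above all WT animals (change 2.43 ± 0.20, adjusted p = 0.000363). Srxn1, which repairs overoxidised peroxiredoxins, changed by 1.36 ± 0.08, adjusted p = 0.000127, and the peroxiredoxin Prdx1 by 1.04 ± 0.08, adjusted p = 0.000358. Catalase (Cat), which breaks down hydrogen peroxide, changed by 0.95 ± 0.08 and the glutathione S-transferase Gsta3 by 2.57 ± 0.31. Haem oxygenase 1 (Hmox1) changed by 0.65 ± 0.07 (adjusted p = 0.00136).

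Malic enzyme (Me1), which produces NADPH, had 375, 318 and 372 in KO animals, against 118, 131 and 121 in WT animals, with no overlap (change 1.52 ± 0.10, adjusted p = 0.00016). In the pentose phosphate pathway 3 of 9 members were higher and 0 lower: Pgd at 0.75 ± 0.07, Taldo1 at 0.73 ± 0.08 and G6pdx at 0.24 ± 0.05. The G6pdx call was lost under 7 alternatives. The pathway's transketolase Tkt gave 0.05 ± 0.07 and did not pass (adjusted p = 0.726). Of the NRF2 list, Nfe2l2, which encodes NRF2 itself, gave -0.10 ± 0.06 (adjusted p = 0.303). Fth1, Txn1, Osgin1, Abcc1, Tkt and Ephx1 made up the other members that did not pass, with Ephx1 at -0.48 ± 0.14 (adjusted p = 0.0556).

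The contrast with IFN-gamma was the smallest of the 3 in 15 of the 20 called NRF2 targets. Across all 1618 called genes it was the smallest in 241 and the largest in 1113, taken in the direction of the average. Prdx1 shows the pattern in single libraries. With IFN-gamma Prdx1 had normalized counts of 235477, 228751 and 252954 in KO libraries, against 189618, 170382 and 155314 in WT libraries. With IL-4 it had 102573, 76172 and 83533 in KO libraries, against 31618, 35243 and 34311 in WT libraries, and untreated it had 62450.3, 54533 and 67443 in KO libraries, against 25288, 25899.9 and 24908 in WT libraries. The groups were apart in every condition, and the changes were 0.48 with IFN-gamma, 1.36 with IL-4 and 1.27 untreated (interaction adjusted p = 0.00141). Txnrd1, the thioredoxin reductase, gave -0.10 with IFN-gamma, 0.80 with IL-4 and 0.74 untreated (interaction adjusted p = 0.000168), and its IFN-gamma libraries overlapped. Over the 27 members the median change was 0.49 with IFN-gamma, 0.76 with IL-4 and 0.66 untreated.

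NRF2 binds antioxidant response elements, whose core is TGACNNNGC. RefSeq promoters of GRCm38.p6, from 250 bases before to 50 after the start, were searched on both strands and matched 23 of the 27 members. The core was present in 9 of the 23 (39.1%), against 17% of the 10289 genes tested that had a promoter in the table and 14% of all 27025 promoters in it. Members were listed as targets of NRF2, so a higher share of its core can follow from the choice of list and is a description. Promoters in the table covered 76.0% of the 904 higher genes, 78.4% of the 714 lower genes and 72% of all genes tested. Among covered genes the core was present in 19.9% of the higher and 17% of the lower ones. These shares speak for part of each set only. A match is a run of letters only, and binding of NRF2 was not measured. The matches before the start in called members follow, with up to 30 bases either side and the core in capitals.
Gclm: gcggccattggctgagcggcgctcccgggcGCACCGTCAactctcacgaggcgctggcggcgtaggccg
Prdx1: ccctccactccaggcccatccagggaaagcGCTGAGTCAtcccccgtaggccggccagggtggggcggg
Txnrd1: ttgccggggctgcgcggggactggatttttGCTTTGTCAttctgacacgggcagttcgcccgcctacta
Gsta3: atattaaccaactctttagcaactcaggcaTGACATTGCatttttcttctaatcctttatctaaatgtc
G6pdx: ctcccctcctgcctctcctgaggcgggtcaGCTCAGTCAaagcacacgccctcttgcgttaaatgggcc
The Gclm stretch lies at chr3:122245393-122245461 on the plus strand, with its match beginning 134 bases before the start. For Prdx1 the stretch is chr4:116685436-116685504 on the plus strand and the match begins 133 bases before the start. For Txnrd1 it is chr10:82859084-82859152 on the plus strand (92 bases before), for Gsta3 chr1:21240434-21240502 on the plus strand (121 bases) and for G6pdx chrX:74428899-74428967 on the minus strand (57 bases). The changes of these 5 genes were 1.35, 1.04, 0.48, 2.57 and 0.24. Only called members were shown, and all 20 of those were higher, so the direction follows from the choice. Nfe2l2, which did not pass, also had a match, 240 bases before the start. Nqo1, Srxn1, Me1, Slc7a11 and Cat had no match before the start within this window.

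**Figure D2:**
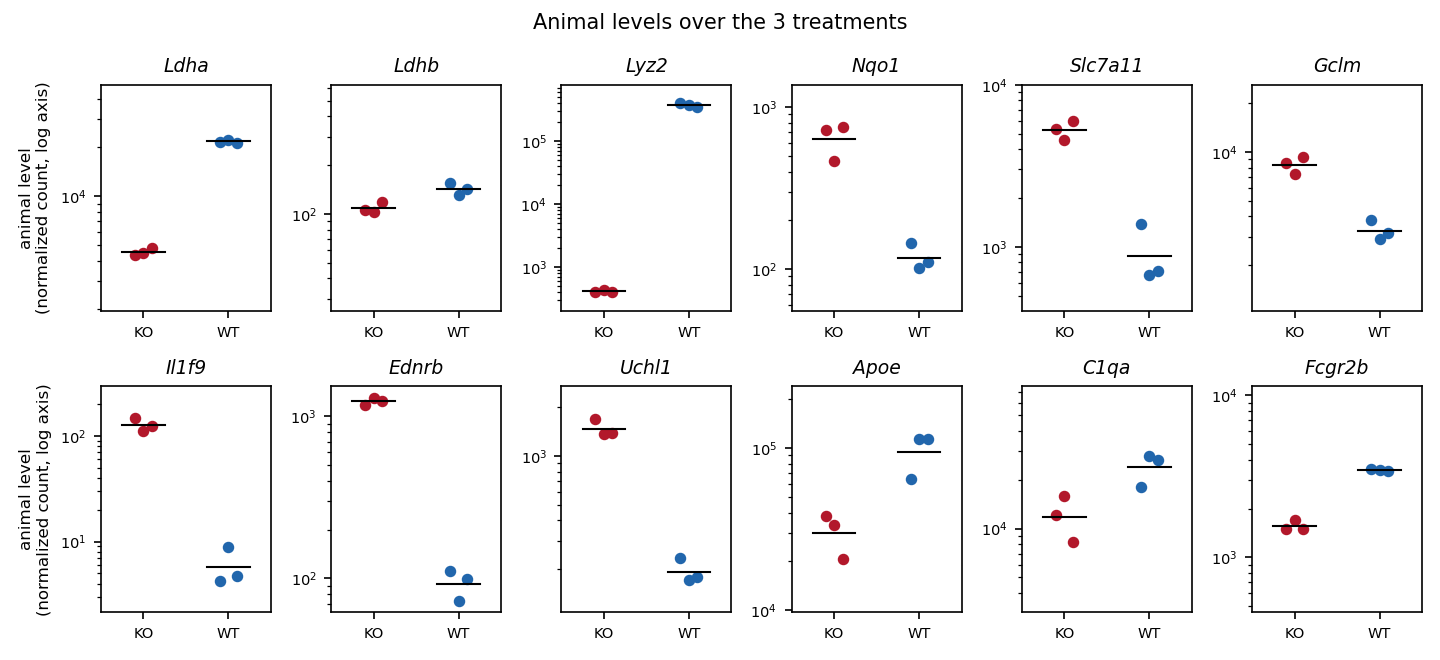
Each panel shows the level of a gene in 3 KO (red, left) and 3 WT animals (blue, right), in normalized counts on a log axis, with a bar at the group's geometric mean. In all 12 panels the KO and WT animals do not overlap, including Ldhb, which did not pass. Lack of overlap held for 34.8% of all genes, and the naming rule required it of the largest increases and decreases.

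Phgdh, the first enzyme of serine synthesis, uses NAD+ and had 535, 488 and 568 in KO animals, against 207, 183 and 206 in WT animals. The animals were clearly apart and the change of 1.41 ± 0.09, adjusted p = 0.000157 was even over treatments (1.58 with IFN-gamma, 1.33 with IL-4 and 1.32 untreated). ATF4 is the transcription factor of the integrated stress response, which answers amino acid shortage. Of 27 tested ATF4 and amino acid stress genes, 8 were higher and 0 lower, against 6.33% and 5% of all genes, with a median change of 0.22. Atf5, itself a stress-response transcription factor, had 4743, 3572 and 4272 in KO animals, against 1444, 1529 and 1536 in WT animals (change 1.47 ± 0.09, adjusted p = 0.000142). Atf4 changed by 0.44 ± 0.05 and Asns, the asparagine synthetase, by 0.59 ± 0.06. Psat1, the next step after Phgdh, gave -0.28 ± 0.09 and did not pass (adjusted p = 0.0669).

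Of 19 glycolysis genes 5 were higher and 2 lower, against 6.33% and 5% of all genes, with a median of 0.15. The higher count was 2 without the untreated libraries or WT replicate 3, 3 without KO replicate 2 and 8 without the IL-4 libraries, and it was 0 with edgeR on reads summed per animal. Pyruvate kinase (Pkm) had 79849.5, 71097 and 70324 in KO animals, against 49473, 55658 and 52838 in WT animals, with no overlap (change 0.49 ± 0.08, adjusted p = 0.00812). The glucose transporters Slc2a1 and Slc2a3 changed by 0.42 ± 0.06 and 0.49 ± 0.10, Eno1 by 0.31 ± 0.07 and Pgam1 by 0.27 ± 0.05. The lower members were Pfkfb4, a regulator of fructose 2,6-bisphosphate, at -0.48 ± 0.05, adjusted p = 0.00141, and Pfkm at -0.35 ± 0.07. Pdk2, which switches off pyruvate dehydrogenase, was lower (-0.53 ± 0.09, adjusted p = 0.00792). Pcx, which carboxylates pyruvate to oxaloacetate, was higher on average at 0.61 ± 0.14 with a change of 1.31 in IL-4 and -0.02 in untreated cells.

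The lactate transporters Slc16a1 (0.0014 ± 0.06, adjusted p = 0.991) and Slc16a3 (0.19 ± 0.13, adjusted p = 0.362) did not pass, whereas the pyruvate and lactate transporter Slc16a7 was lower (-0.36 ± 0.09, adjusted p = 0.0349). Of 22 TCA cycle genes 1 was higher, Acod1, which makes itaconate, with 18069, 18817 and 21360.4 in KO animals, against 12652, 9339 and 9070.5 in WT animals (change 0.92 ± 0.12, adjusted p = 0.00336). Acod1 did not pass on reads summed per animal with edgeR (adjusted p = 0.247) or DESeq2 (adjusted p = 0.127). Of 10 genes of the cytosolic NADH shuttles 1 was higher, the aspartate-glutamate carrier Slc25a13 (0.31 ± 0.06, adjusted p = 0.015), and 0 were higher without KO replicate 1, WT replicate 2 or the untreated libraries or with edgeR on reads summed per animal. None of the 33 nuclear respiratory chain genes tested passed with limma (6 at an unadjusted p under 0.05). On reads summed per animal 0 passed with edgeR and 0 with DESeq2, and with edgeR on the 18 libraries 7 were higher. In the limma test their changes lay between -0.09 and 0.28. For comparison with the counts in these lists, 6.33% of all genes were higher and 5% lower.

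Il1f9, the cytokine interleukin-36 gamma, had 149, 111 and 125 in KO animals, against 4.26, 8.93 and 4.75 in WT animals. WT levels were low, and every KO animal was more than 10-fold above every WT animal (change 4.26 ± 0.26, adjusted p = 0.000127). Ednrb, an endothelin receptor, had 1185, 1306 and 1245 in KO animals, against 111, 72.9 and 99.3 in WT animals (change 3.73 ± 0.14, adjusted p = 5.4e-06). Uchl1, a ubiquitin hydrolase best known from neurons, had 1699.7, 1359 and 1390.03 in KO animals, against 234, 172 and 178 in WT animals (change 2.93 ± 0.13, adjusted p = 1.69e-05). All 3 genes were without overlap in every condition. Serpinb9b, a serine protease inhibitor, had 618, 359 and 805 in KO animals, against 52.8, 30.5 and 29.6 in WT animals (change 3.92 ± 0.31, adjusted p = 0.000357).

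Met, the receptor of hepatocyte growth factor, had 414, 188 and 409.9 in KO animals, against 42.6, 24.9 and 29.7 in WT animals. KO replicate 2 was the lowest KO animal and still above the highest WT animal (change 3.29 ± 0.31, adjusted p = 0.000705). The surface glycoprotein Cdcp1 changed by 3.38 ± 0.27, Ndrg4 by 2.83 ± 0.30 and the integrin subunit Itgb8, which activates latent TGF-beta, by 2.75 ± 0.17. Cav1, the main protein of caveolae, changed by 2.34 ± 0.41, the cell adhesion protein Flrt3 by 2.25 ± 0.29, the cyclin-dependent kinase inhibitor Cdkn1c by 2.14 ± 0.31 and the secreted protease Htra1 by 2.13 ± 0.37. With Slc7a11, Gsta3 and Nqo1 these are the 15 largest increases under the naming rule.

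Apoe, the apolipoprotein that macrophages secrete with cholesterol, had 38114, 33608 and 20619 in KO animals, against 64618, 113253 and 113346 in WT animals. The highest KO animal was well below WT replicate 1, the lowest WT animal (change -1.66 ± 0.26, adjusted p = 0.00669). Siglec1, the sialic acid receptor CD169, had 1641, 2785 and 2758 in KO animals, against 4892, 5176 and 6205 in WT animals (change -1.21 ± 0.19, adjusted p = 0.00611). The ceramide synthase Cers4 changed by -1.48 ± 0.28, adjusted p = 0.0123 and Slfn1 by -1.44 ± 0.28, adjusted p = 0.015, the second at animal levels of at most 22.1. Ifitm6 changed by -1.39 ± 0.13, the potassium channel Kcnj10 by -1.30 ± 0.14, the adaptor Scimp by -1.19 ± 0.24, the sodium-proton exchanger Slc9a9 by -1.16 ± 0.15 and the non-muscle myosin Myh10 by -1.09 ± 0.13.

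Cholesterol efflux genes controlled by LXR, the oxysterol receptor, split. Of 11 tested, 2 were higher and 3 lower, against 6.33% and 5% of all genes. Abca1, the pump that exports cholesterol, had 4879, 6312 and 6644 in KO animals, against 10447, 8861 and 9709 in WT animals (change -0.71 ± 0.11, adjusted p = 0.00669), and Pltp, the phospholipid transfer protein, changed by -0.71 ± 0.11, adjusted p = 0.00666. The higher members were Mylip, which degrades the LDL receptor, at 0.46 ± 0.06, adjusted p = 0.00194, and Smpdl3a at 0.57 ± 0.07, adjusted p = 0.00238. In each of these 5 genes, Apoe among them, animal levels did not overlap.

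Of 24 macrophage identity genes 9 were lower and 2 higher, against 5% and 6.33% of all genes, with a median of -0.32. The lower count was 4 without the IFN-gamma libraries, KO replicate 3 or WT replicate 2, and 5 without KO replicate 1 or WT replicate 3. The lower members were Lyz2, Lyz1, Fcgr1, Cd5l and the following. The actin-binding protein Aif1 had 1144, 1662 and 1173 in KO animals, against 2223, 2576 and 2326 in WT animals (change -0.86 ± 0.13, adjusted p = 0.00602). The transcription factor Maf changed by -0.57 ± 0.14, the surface marker Adgre1 by -0.39 ± 0.10 and the efferocytosis receptor Mertk by -0.65 ± 0.10. C1qa, the A chain of complement C1q, had 12202, 15978 and 8241 in KO animals, against 18179.9, 27982 and 26692 in WT animals (change -1.03 ± 0.23, adjusted p = 0.0263), whereas C1qb (-0.35 ± 0.12, adjusted p = 0.0846) and C1qc (-0.41 ± 0.14, adjusted p = 0.0931) did not pass. Cx3cr1, the fractalkine receptor, was higher, with 188, 268 and 146 in KO animals, against 64.9, 57.4 and 79.4 in WT animals (change 1.53 ± 0.22, adjusted p = 0.00439).

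Among 34 phagocytic and scavenger receptors 9 were lower and 4 higher, against 5% and 6.33% of all genes. The mannose receptor Mrc1 had 2672, 2579.7 and 2683 in KO animals, against 3946, 4969 and 5905 in WT animals, with no overlap (change -0.88 ± 0.12, adjusted p = 0.00384). All 4 Fc receptors for IgG named here were lower. The inhibitory receptor Fcgr2b had 1497, 1698 and 1506 in KO animals, against 3488, 3464 and 3435 in WT animals (change -1.15 ± 0.06, adjusted p = 5.71e-05). The activating receptors Fcgr4, Fcgr3 and Fcgr1 changed by -0.72 ± 0.06, -0.49 ± 0.05 and -0.56 ± 0.09, and KO and WT animal levels overlapped in none of them. The higher receptors were Axl, which clears apoptotic cells, at 0.65 ± 0.14, adjusted p = 0.0246, Havcr2 at 0.49 ± 0.11, Trem2 at 0.44 ± 0.09 and the scavenger receptor Msr1 at 0.34 ± 0.06. The higher count was 0 without WT replicate 3 and 2 without WT replicate 2, KO replicate 3 or the IFN-gamma libraries. Trem2 was higher with IFN-gamma (1.41) and near 0 with IL-4 (-0.06) and untreated (-0.02).

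Of 26 extracellular matrix and remodelling genes 8 were higher and 0 lower, and of 13 osteoclast and cell fusion genes 6 were higher and 1 lower. Of all genes 6.33% were higher and 5% lower. Without the IFN-gamma libraries 4 of 26 and 3 of 13 were higher, and without KO replicate 1 the matrix count was 5. Mmp12, the macrophage elastase, had 75199, 47141 and 63648 in KO animals, against 16166, 18965 and 16809.6 in WT animals (change 1.82 ± 0.15, adjusted p = 0.000404), and the collagenase Mmp13 had 2359, 1513 and 2709 in KO animals, against 727, 799 and 774 in WT animals (change 1.47 ± 0.18, adjusted p = 0.00206). Tgfbi, a secreted adhesion protein, changed by 1.08 ± 0.08. The osteoclast integrin Itgb3 changed by 1.71 ± 0.18, the collagen-degrading cathepsin Ctsk by 0.94 ± 0.15, the fusion receptor Dcstamp by 1.02 ± 0.10 and the phosphatase Acp5 by 0.79 ± 0.18. The lower member was Atp6v0d2, a proton pump subunit, at -0.41 ± 0.10, adjusted p = 0.0365. Its call was lost under 8 alternatives, and its sign turned on reads summed per animal.

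Of all 14288 genes 7448 had positive changes, and 6.33% passed as higher and 5% as lower. All 14 tested stromal and fibroblast markers had positive changes, with a median of 1.22, and 4 of 14 passed: Igfbp7, Col5a1, Pdgfrb and Acta2. The number that passed was 1 without KO replicate 1, KO replicate 2, WT replicate 3 or the IFN-gamma libraries, 2 without the untreated libraries and 8 without KO replicate 3. The 16 of 18 markers in the table summed to a mean of 646 to 1936 normalized counts in KO animals, against 319.8 to 649 in WT animals. The collagen gene Col1a1 had 396, 508 and 135 in KO animals, against 56.9, 143 and 124 in WT animals. KO replicate 3 lay among the WT animals, and the change of 1.57 ± 0.49 did not pass (adjusted p = 0.0704). Dcn had at most 7 reads in any library and Pdgfra was likewise left out by the filter. The part of such cells in the matrix result was not tested, and in bulk samples more cells of a type and more RNA per cell cannot be told apart.

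Other cell types were read as follows, beside 6.33% of all genes higher and 5% lower. Of 13 tested dendritic cell markers 4 were higher and 0 lower: Cd24a with 271, 225 and 302 in KO animals, against 94.7, 46.4 and 48.9 in WT animals (change 2.12 ± 0.25, adjusted p = 0.00196), and Fscn1, Ccr7 and Zbtb46 at 2.20 ± 0.46, 1.91 ± 0.40 and 1.36 ± 0.28. The number was 1 without KO replicate 1 or 2 and 2 without WT replicate 2 or 3. Their summed counts overlapped between genotypes, at 19897 to 23459 in KO animals and 21935 to 22917 in WT animals. Fscn1, Ccr7 and Zbtb46 were low, with animal levels of at most 24.1, 42.2 and 20.1. Libraries overlapped for Fscn1 with IL-4 and untreated, for Ccr7 with IFN-gamma and untreated, and for Zbtb46 with IFN-gamma. Among 4 tested neutrophil markers S100a8 was higher (2.09 ± 0.26, adjusted p = 0.00234) at levels of at most 21.8, Mmp8 was higher (1.10 ± 0.24) and the G-CSF receptor Csf3r was lower (-0.64 ± 0.09). Among 5 tested lymphocyte markers Il7r, which these macrophages express, was higher (0.59 ± 0.09, adjusted p = 0.00602) and Cd4 lower (-0.93 ± 0.23, adjusted p = 0.0382). The part of such cells in the results was not tested.

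Of 22 chemokines 3 were higher and 4 lower, and of 18 inflammatory cytokines 2 were higher and 4 lower, against 6.33% and 5% of all genes. Without the IFN-gamma libraries 1 chemokine and 1 cytokine were lower, and the lower chemokines numbered 7 without WT replicate 1 and 2 without WT replicate 3. Ccl22, which attracts CCR4-bearing T cells, had 194, 273 and 183 in KO animals, against 61.5, 49.97 and 49.3 in WT animals (change 1.98 ± 0.17, adjusted p = 0.000492). Cxcl3 and Cx3cl1 changed by 1.54 ± 0.24 and 1.46 ± 0.27. The lower chemokines were Ccl6, with 2351, 2663 and 2663 in KO animals, against 6316, 6040.3 and 5488 in WT animals (change -1.22 ± 0.07, adjusted p = 0.000124), and Ccl8, Ccl5 and Ccl9 at -1.28 ± 0.24, -0.67 ± 0.11 and -0.37 ± 0.07. Of the cytokines, Il18 had 122, 160.3 and 155 in KO animals, against 379, 301 and 278 in WT animals (change -1.13 ± 0.15, adjusted p = 0.0029), and Il15, Il27 and Ebi3 changed by -0.42 ± 0.07, -0.69 ± 0.18 and -0.43 ± 0.06. Il12b was higher (1.96 ± 0.32), mostly in IFN-gamma (4.59). Il1b (-1.28 ± 0.44, adjusted p = 0.0969) did not pass, with 4072 in WT replicate 1 and at most 1389 in any other animal.

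Of 44 IFN-gamma response genes 2 were higher and 4 lower, and of 26 type I interferon-stimulated genes 0 were higher and 2 lower. Of all genes 6.33% were higher and 5% lower. With limma 0 of 11 MHC class II genes passed (3 at an unadjusted p under 0.05). For MHC class II, edgeR on reads summed per animal passed 0, DESeq2 on them 1 higher and 2 lower, and edgeR on the 18 libraries 3 lower. Without the IL-4 libraries 7 IFN-gamma response genes and 5 type I genes were lower, and without the IFN-gamma libraries 1 and 0. Irf8, a transcription factor of the myeloid lineage, changed by -0.35 ± 0.05, adjusted p = 0.00438. Among polarization markers, Irf1 (-0.28 ± 0.08, adjusted p = 0.0545), Cxcl9 (-0.24 ± 0.44, adjusted p = 0.762), Arg1 (-0.02 ± 0.20, adjusted p = 0.96), Retnla (-0.30 ± 0.28, adjusted p = 0.522) and Chil3 (0.35 ± 0.27, adjusted p = 0.42) did not pass. Nos2, which makes nitric oxide, did, at 0.97 ± 0.14, adjusted p = 0.00395. Nos2 did not pass without the IL-4 libraries (adjusted p = 0.063) or on reads summed per animal with edgeR (adjusted p = 0.468) or DESeq2 (adjusted p = 0.613). Cxcl9 was read mainly with IFN-gamma, at 70775, 75680 and 67901 in KO libraries, against 111523, 118596 and 121121 in WT libraries. Arg1, Retnla and Chil3 were read mainly with IL-4, where KO and WT libraries overlapped. Elsewhere these genes had at most 35.9 normalized counts, so their averages rest largely on values near 0.

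**Figure D3:**
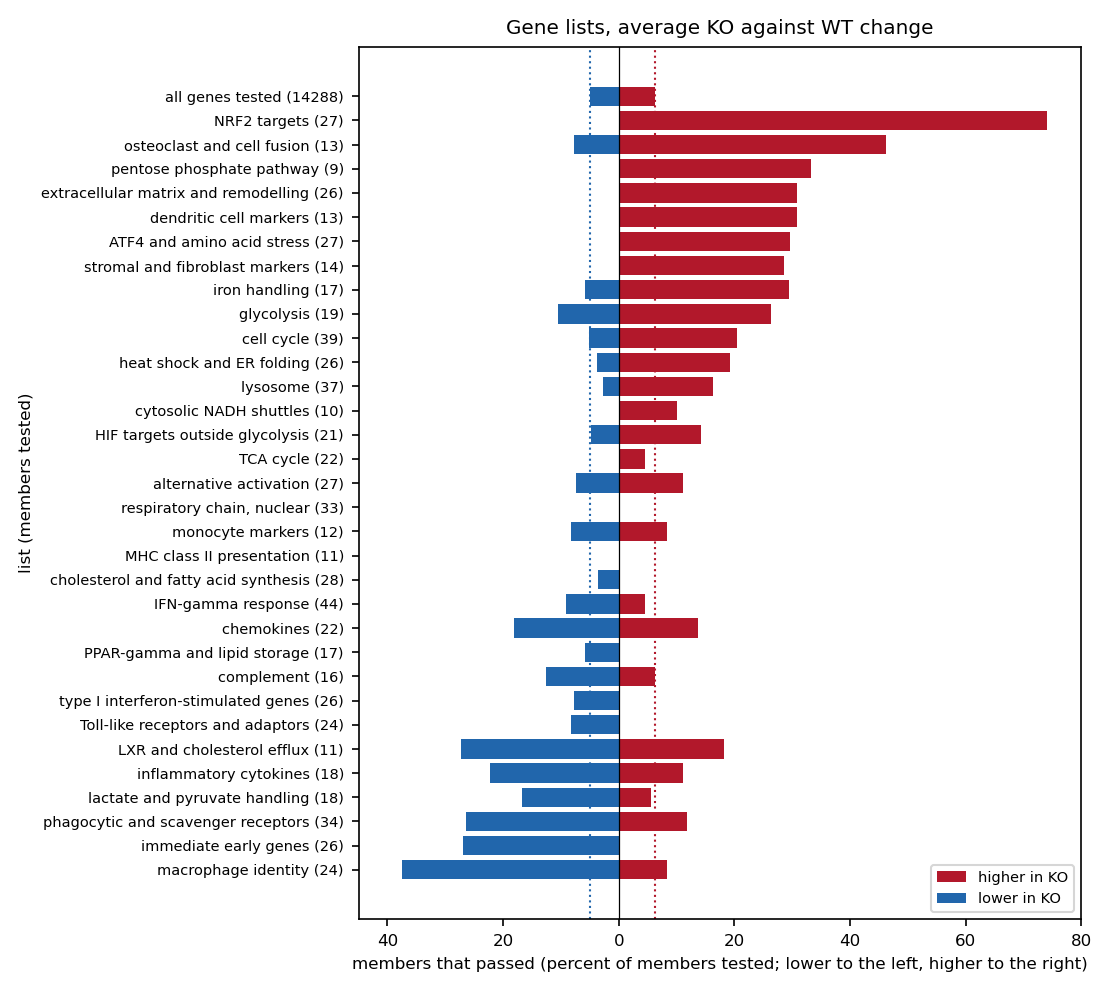
Bars give the percent of tested members of each list that passed as higher (red, to the right) or lower (blue, to the left) in KO macrophages. The number tested is in brackets, and dotted lines mark the 6.33% and 5% of all genes. NRF2 targets have 20 of 27 members higher, and macrophage identity genes 9 of 24 lower.

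Of 39 cell cycle genes 8 were higher and 2 lower, and the higher count was 2 without KO replicate 1, 3 without KO replicate 2, WT replicate 3 or the untreated libraries, 4 without KO replicate 3 and 5 without WT replicate 2 or the IFN-gamma libraries. The mitotic kinesin Kif23 changed by 0.58 ± 0.10, the mitotic kinase Aurka by 0.42 ± 0.09, the replication clamp Pcna by 0.54 ± 0.11, and the inhibitor Cdkn1a by 0.52 ± 0.13. The cyclin Ccnd3 was lower (-0.47 ± 0.08, adjusted p = 0.00782). Of 26 heat shock and ER folding genes 5 were higher and 1 lower, and 2 or 3 were higher without any 1 KO animal, WT replicate 2, WT replicate 3 or the untreated libraries, and 1 with edgeR on reads summed per animal. The heat shock and ER folding genes included Hsph1 at 0.42 ± 0.05, Hspa1b at 0.97 ± 0.14 and Herpud1 at -0.43 ± 0.06. Hspa1b gave -0.17 with IFN-gamma, where libraries overlapped, 1.32 with IL-4 and 1.75 untreated. Its call was lost with edgeR and DESeq2 on reads summed per animal. Of 37 lysosomal genes 6 were higher and 1 lower, with the acid lipase Lipa, which frees cholesterol from its esters, at 0.49 ± 0.08, adjusted p = 0.00624. The higher count of lysosomal genes was 0 without the IFN-gamma libraries, 1 to 3 without any 1 animal, 1 with edgeR on reads summed per animal and 10 without the IL-4 libraries. In the remaining lists tested at most 5 members passed in either direction. For comparison with these counts, 6.33% of all genes were higher and 5% lower.

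The size of the genotype difference could vary with treatment. A genotype by treatment interaction, tested with animals as a block, passed for 1864 of 14288 genes (13%). It passed for 603 of the 1618 genes called on average (37.3%) and for 1261 of the 12670 others (9.95%). Without single animals the interaction count was 841 to 1742, with 931 without KO replicate 1, 841 without KO replicate 2, 1123 without KO replicate 3 and 1179 without WT replicate 3. Of the 338 genes called at 2-fold or more, 246 had no called interaction, and for 41 the 3 contrasts lay within 0.5 of each other on the log2 scale. A missed interaction does not show an even difference.

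Even differences are seen best in single genes. Il1f9 had normalized counts of 499, 268 and 449.6 in KO libraries, against 16.7, 22.5 and 18.9 in WT libraries with IFN-gamma. With IL-4 it had 76.6, 76.2 and 62.5 in KO libraries, against 1.09, 6.56 and 3.13 in WT libraries, and untreated it had 86.0, 65.8 and 68.6 in KO libraries, against 2.92, 4.51 and 1.32 in WT libraries. Levels in both genotypes were higher with IFN-gamma, and the change was 4.28 with IFN-gamma, 4.17 with IL-4 and 4.33 untreated. By the rule of smallest range, Phgdh, the protease inhibitor Spint1 (2.21 with IFN-gamma, 2.07 with IL-4 and 2.04 untreated), the integrin subunit Itgb7 (1.73 ± 0.28 on average), the hyaluronan receptor Layn (1.70 ± 0.32) and the VEGF receptor Flt4 (1.14 ± 0.21) joined it among the higher genes. On the lower side the rule named Lyz2, Ldha, Apoe (-1.66 with IFN-gamma, -1.71 with IL-4 and -1.60 untreated), Siglec1, Slfn1 and C1qa. Of these, Ldha and Lyz2 had a called interaction. Flt4 and Slfn1 cannot show an even difference, since they were near 0 outside IFN-gamma, at most 8.74 and 5.46 in any library. Flt4 libraries overlapped in both of those conditions, and its call was lost under 7 alternatives. Layn libraries overlapped with IFN-gamma.

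**Figure D4:**
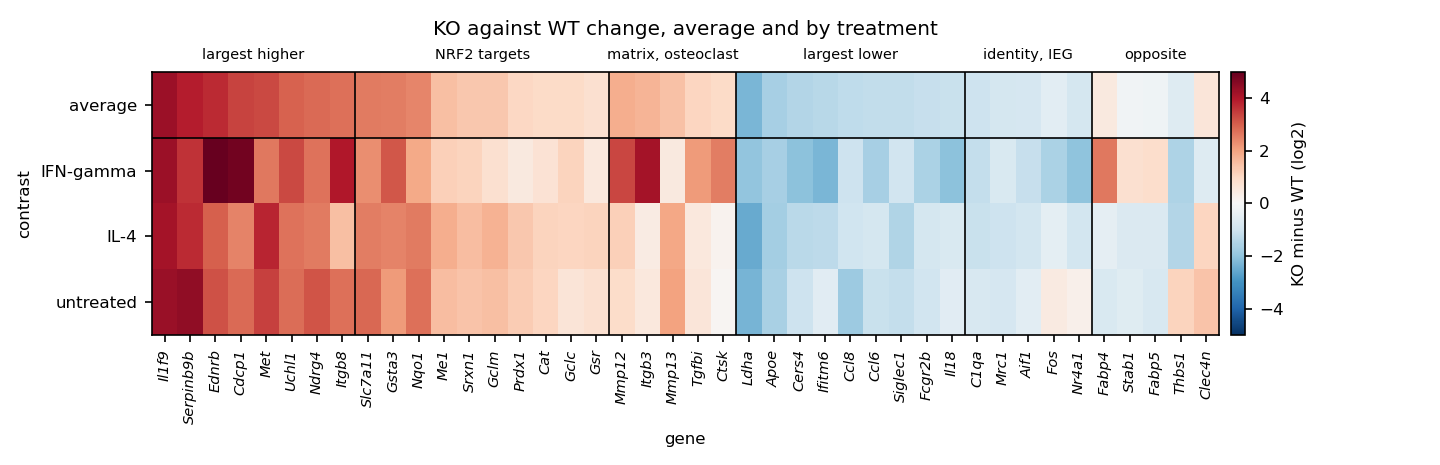
Colours give the KO minus WT change on the log2 scale, red for higher and blue for lower in KO macrophages, for the average (top) and for IFN-gamma, IL-4 and untreated cells. Columns are named genes, grouped by the sections of the text (IEG, immediate early genes). Il1f9 and Apoe have nearly one colour in all 4 lines, whereas Itgb3 and Ctsk are deep red in the IFN-gamma line alone and Fabp4 and Stab1 turn from red to blue.

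Other averages came mainly from 1 condition. Itgb3 had 199, 175 and 212 in KO libraries, against 19.6, 7.89 and 5.90 in WT libraries with IFN-gamma. With IL-4 it had 4866, 3873 and 4263 in KO libraries, against 3305, 3039 and 3506 in WT libraries, and untreated 1132, 857 and 867 in KO libraries, against 877, 573 and 537 in WT libraries. The IFN-gamma libraries were at least 8-fold apart, and the untreated ones overlapped at WT replicate 1 (changes 4.18 with IFN-gamma, 0.40 with IL-4 and 0.55 untreated; interaction adjusted p = 2.12e-06). The same shape, largest with IFN-gamma, was found in the other 7 called genes with the strongest interaction. Dio2, which activates thyroid hormone, gave 4.63 with IFN-gamma, 1.22 with IL-4 and 0.36 untreated, and Ctsk gave 2.56 with IFN-gamma, 0.18 with IL-4 and 0.09 untreated. Fam20c, a secretory pathway kinase, gave 1.98 with IFN-gamma, 0.35 with IL-4 and -0.01 untreated. The chromatin protein Hmga2, the serotonin receptor Htr2a, the endolysosomal channel Mcoln2 and Il7r gave 2.56, 3.63, 1.57 and 1.43 with IFN-gamma, and at most 1.55 in the other conditions.

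Nos2 differed from these. It had 188812, 159653 and 168030 in KO libraries, against 132459, 119531 and 111980 in WT libraries with IFN-gamma. With IL-4 it had 1699, 2072 and 2072 in KO libraries, against 719, 243 and 348 in WT libraries, and untreated it had 53.4, 36.4 and 40.8 in KO libraries, against 41.9, 38.8 and 38.2 in WT libraries. The genotypes were apart with IFN-gamma and furthest apart with IL-4, where Nos2 is low, and they overlapped untreated (changes 0.50 with IFN-gamma, 2.30 with IL-4 and 0.12 untreated; interaction adjusted p = 0.000409).

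Immediate early genes, which are switched on within minutes of a signal, numbered 26. On average 7 were lower and 0 higher, against 5% and 6.33% of all genes, and 0 of 26 passed without the IFN-gamma libraries. Without KO replicate 1 there were 3 lower, and without KO replicate 2 or WT replicate 3 there were 4. Fos changed by -0.53 ± 0.09 (adjusted p = 0.00932) as the average of -1.58 with IFN-gamma, -0.48 with IL-4 and 0.46 untreated. Nr4a1 gave -2.005 with IFN-gamma, -0.92 with IL-4 and 0.25 untreated, and Ier2, Ier3, Junb and Zfp36 gave -0.90, -0.96, -1.01 and -1.01 with IFN-gamma. The interaction passed for 15 of the 26, against 13% of all genes.

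For 132 genes with a called interaction the KO and WT contrast had opposite signs in a pair of conditions, each at least 0.5 on the log2 scale, and 0 of the 132 passed on average with limma. Stab1, a scavenger receptor, had 5283, 4665 and 4133 in KO libraries, against 2163, 2895 and 3038 in WT libraries with IFN-gamma. With IL-4 it had 4317, 4762 and 4147 in KO libraries, against 5901, 7525 and 8591 in WT libraries, and untreated 8689.97, 9976 and 8538 in KO libraries, against 12048, 13971 and 15955 in WT libraries. KO libraries were all higher with IFN-gamma and all lower in the other conditions, and the average was -0.18 ± 0.11 (adjusted p = 0.335; interaction adjusted p = 9.48e-07).

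The fatty acid-binding proteins Fabp4 and Fabp5 followed the same order. Fabp4 had 857, 694 and 1151 in KO libraries, against 248, 125 and 87.3 in WT libraries with IFN-gamma. With IL-4 it had 3973, 2956 and 2984 in KO libraries, against 4139.8, 5226 and 4127 in WT libraries, and untreated 1745, 1452 and 1754 in KO libraries, against 2973, 2959 and 2378 in WT libraries. The libraries did not overlap in any condition, KO being higher with IFN-gamma and lower in the others (average 0.49 ± 0.15, adjusted p = 0.0693). Fabp5 gave 0.88 with IFN-gamma, -0.74 with IL-4 and -0.79 untreated. Clec4n, the fungal receptor dectin-2, had the reverse order (-0.65 with IFN-gamma, 1.07 with IL-4 and 1.43 untreated). Thbs1, thrombospondin 1, gave -1.55 with IFN-gamma, -1.48 with IL-4 and 1.13 untreated, and WT replicate 1 had the highest count of the WT libraries in each condition, at 97789, 44179 and 5743.

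**Figure D5:**
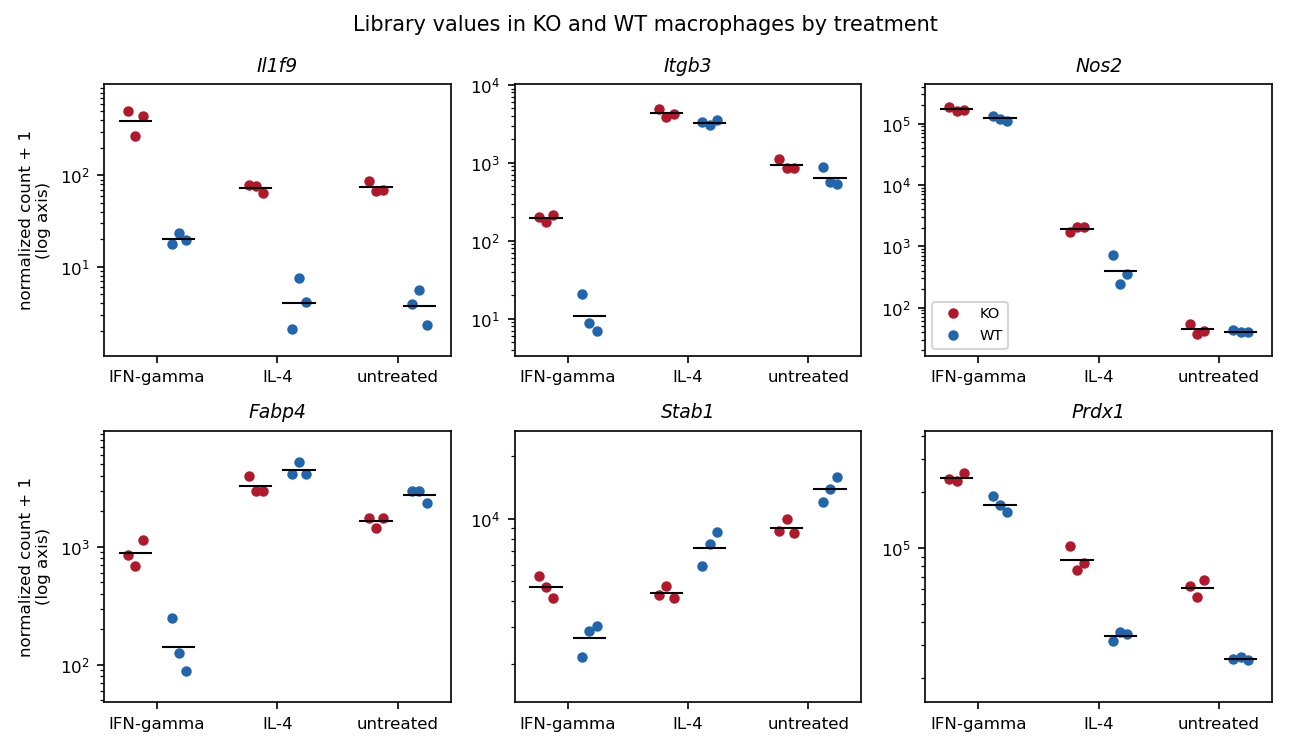
Points are single libraries, KO (red) left of WT (blue) in each condition, as normalized count plus 1 on a log axis, with bars at geometric means. Il1f9 keeps 1 distance in all conditions, Itgb3 opens with IFN-gamma, Nos2 opens with IL-4, and Fabp4 and Stab1 cross between IFN-gamma and the other conditions.

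Position relative to the loci most changed was described last. Within 5 Mb of Ldha on chromosome 7, 13 of 111 tested genes passed (11.7%), and within 5 Mb of Lyz2 on chromosome 10, 7 of 44 passed (15.9%), against 11.3% of all genes. Within 1 Mb the counts, which leave out Ldha and Lyz2, were 5 of 19 and 3 of 16. Around Ldha these were Gtf2h1 (0.37 ± 0.07), Hps5 (-0.20 ± 0.06), Tmem86a (-0.29 ± 0.06), Nomo1 (0.30 ± 0.07) and Grin2d (1.02 ± 0.24), all smaller in size than the change of Ldha. Flanking strain DNA and the effects of genotype cannot be told apart for such neighbours.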

How the data were processed

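RNA sequencing libraries of 18 macrophage cultures were analysed. STAR 2.5, HTSeq 0.6, GRCm38, DESeq2 and edgeR stand in the submitters' processing notes. No strand setting was found in the labels, so genes overlapping on opposite strands are uncertain. The deposited signal values are normalized counts per gene. In each library all values (100%, tolerance 0.1) were whole multiples of one step, which gave 9772945 to 49537719 reads. These recovered reads entered the alternatives with edgeR 4.0.16 and DESeq2 1.42.0, and edgeR called 3939 genes on the 18 libraries. Of the identifiers, 97.83% matched the GENCODE M21 annotation.

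Genes with 10 or more normalized counts in 3 or more libraries were kept. Log2 of the value plus a pseudocount of 1 was averaged per animal and fitted with limma 3.58.1 in R 4.3.3 (trend, two-sided, 4 residual degrees of freedom, Benjamini-Hochberg adjustment). Interactions were fitted on 18 libraries with animal as a block (8 residual degrees of freedom). Contrasts within a treatment are differences of group means. On simulated data for the average comparison (14085 genes), 91.9% of log2 changes of 1 and 100% of changes of 2 were recovered, with 7 false calls.

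Replicates are separate animals by their codes. After subtraction of group means, libraries of one animal in 2 treatments correlated across genes at r = 0.0036 to 0.243. The comparison, gene lists, naming rule and alternatives were chosen with earlier results of these data known. The rule takes Ldha, Ldhb and Lyz2, and the 15 largest increases and decreases that passed without overlap of animals and reached 100 normalized counts in the higher genotype. It adds the 6 most even across treatments in each direction, the 8 strongest interactions, the 8 strongest changes of sign, up to 4 called genes per list and 7 polarization markers. The text names part of these, and other genes were named after their values were seen. Alternatives changed the pseudocount, filter, scaling, model, treatments or animals. Columns of the authors' own fold changes and p-values were not used.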

Additional observations from a re-analysis of the deposited data

Results flagged for a closer look

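The difference between KO and WT macrophages varied with treatment for 1864 genes, by an F test of the genotype by treatment interaction in limma with animals as a block. The values below are its adjusted p for the genes named in the text. Groups of 3 animals are too small for an outlier test. Among the targets and metabolic genes it was 0.00500 for Ldha, 0.0124 for Lyz2, 0.0183 for Pfkm, 0.0195 for Pdk2, 0.00419 for Pcx and 0.0357 for Slc2a1, and also 0.00783 for Slc16a3, 0.00239 for Psat1, 0.000178 for Atf5, 0.0433 for Me1 and 0.00254 for G6pdx. Among NRF2 targets it was 9.00e-05 for Gclm, 0.000168 for Txnrd1, 0.00120 for Gsr, 0.00141 for Prdx1, 0.00662 for Gclc and 0.0132 for Cat, and also 0.0135 for Nqo1, 0.0198 for Srxn1, 0.0208 for Ephx1 and 0.00527 for Blvrb. Among the largest increases it was 0.000300 for Ednrb, 0.000399 for Itgb8, 8.79e-05 for Cdkn1c, 9.56e-05 for Htra1 and 0.00109 for Cdcp1. Among the largest decreases it was 2.08e-05 for Ifitm6, 0.000236 for Il18, 0.0182 for Myh10, 0.0187 for Ccl6, 0.0335 for Cers4 and 0.0389 for Fcgr2b, and also 0.0448 for Scimp. Among matrix and osteoclast genes and those with the strongest interaction it was 3.96e-08 for Dio2, 3.29e-07 for Ctsk, 9.48e-07 for Mcoln2, 1.96e-06 for Htr2a, 2.12e-06 for Il7r and 2.12e-06 for Hmga2, and also 2.12e-06 for Itgb3, 2.27e-06 for Fam20c, 2.39e-06 for Mmp12, 6.25e-05 for Tgfbi and 0.0350 for Mmp13. Among genes of opposite sign it was 9.48e-07 for Stab1, 6.17e-06 for Fabp5, 7.23e-06 for Thbs1, 9.83e-06 for Fabp4 and 1.72e-05 for Clec4n. Among receptors and markers it was 0.000102 for Trem2, 0.00561 for Havcr2, 0.0168 for Fcgr4, 0.0416 for Fcgr1, 0.0259 for Cd68 and 0.0252 for Csf3r, and also 0.0196 for Cd4 and 0.00160 for S100a8. Among signals and immune regulators it was 0.000409 for Nos2, 0.00140 for Irf8, 3.05e-05 for Il1b, 0.0122 for Il12b, 0.00748 for Il15 and 0.0279 for Il27, and also 0.00838 for Cxcl3 and 0.00346 for Ccl9. Among early response genes it was 0.000103 for Zfp36, 0.000168 for Fos, 0.000338 for Nr4a1, 0.00740 for Ier2, 0.0107 for Ier3 and 0.0158 for Junb. For the other genes it was 9.31e-05 for Ccnd3, 0.000274 for Lipa, 0.000286 for Steap3, 0.00148 for Hspa1b, 0.00158 for Pcna, 0.00913 for Smpdl3a, 0.0354 for Tmem86a and 0.0484 for Slc40a1.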

How the results depend on the processing

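With 1618 genes called (904 higher, 714 lower), a pseudocount of 0.5 or 5, no filter, a filter on the mean (50 or more), quantile normalization, TMM-type factors, DESeq2 on reads summed per animal, and leaving out the untreated libraries gave 1398 to 1757. Models of 18 libraries gave more calls: 3864 (2031 higher, 1833 lower) without animals, 2784 (1469, 1315) with animal as a random block and 3939 (2017, 1922) with edgeR on reads. edgeR on reads summed per animal gave 869 (466, 403). Without IFN-gamma libraries 523 genes passed (330, 193), and without IL-4 libraries 2390, of which 1103 lower. Leaving out 1 animal gave 743 to 1759 calls, 426 to 1041 higher and 270 to 718 lower, and 841 to 1742 interactions against 1864.

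The share of calls that were higher was 47.8% with DESeq2 on summed reads to 63.7% without WT replicate 3, and 55.9% in the reported fit. The replicate block gave 1031 calls (427 lower), 984 of them shared. Deviations of same-numbered KO and WT animals correlated at r = -0.125, 0.149 and -0.154. Libraries of one animal correlated at only 0.0036 to 0.243, so these values cannot decide whether the numbers pair animals. Without the replicate block by animal, interactions numbered 1046, of which 1042 were shared.

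The change turned in sign for 13 named genes. Without IFN-gamma libraries the change was -0.038 for Trem2, 0.024 for Zfp36, -0.60 for Fabp4, -0.080 for Cd68, 0.0015 for Cxcl9 and -0.066 for Slc16a1. With edgeR on reads summed per animal the change was 0.083 for Atp6v0d2, -0.24 for Fabp4, -0.031 for Slc16a3 and 0.13 for Arg1. With DESeq2 on summed reads the change was 0.082 for Atp6v0d2, -0.24 for Fabp4, -0.034 for Slc16a3 and 0.13 for Arg1. Without untreated libraries the change was 0.071 for Fabp5, 0.043 for Stab1, -0.075 for Slc16a3 and 0.58 for Arg1. Without IL-4 libraries the change was 0.046 for Fabp5, 0.094 for Stab1, 0.046 for Arg1 and -0.0061 for Slc16a1. With a pseudocount of 5 the change was 0.043 for Arg1. With quantile normalization the change was -0.011 for Slc16a1. Leaving out 1 animal gave changes of -1.09 to 0.064 for Thbs1 (turned without WT replicate 1), -0.0083 to 0.099 for Tkt (turned without KO replicate 1 and WT replicate 1), -0.76 to 0.096 for Cxcl9 (turned without KO replicate 1 and WT replicate 3), -0.18 to 0.16 for Arg1 (turned without KO replicate 1 and WT replicate 2) and -0.028 to 0.023 for Slc16a1 (turned without KO replicate 1 and WT replicate 1). Of these, Fabp4 without IFN-gamma libraries passed (adjusted p = 0.0267), against 0.0693 reported. The cause was not tested. Of 144 named genes that passed, 57 lost their call without the IFN-gamma libraries, 54 with edgeR on summed reads, and 5 to 39 on leaving out 1 animal. 3 animals a genotype limit the precision, and the shallowest library held 9772945 reads.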

Other observations

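Of 17 iron handling genes tested, 5 were higher and 1 lower in KO macrophages, and the higher count was 3 without the IFN-gamma libraries or KO replicate 1 and 0 with edgeR on reads summed per animal. No member passed as lower without KO replicate 1, 2 or 3 or WT replicate 2 or 3, or without the IFN-gamma libraries. Slc40a1, ferroportin, the iron exporter of the cell membrane, had animal levels of 1771, 2152 and 2096 in KO animals, against 1221, 1231 and 1306 in WT animals (change 0.67 ± 0.08, adjusted p = 0.00186). The other higher members were Hmox1, which frees iron from haem, the biliverdin reductase Blvrb (0.41 ± 0.06), the ferrireductase Steap3 (0.35 ± 0.07) and the ferritin light chain Ftl1 (0.34 ± 0.09). Hfe, a regulator of iron uptake, was lower (-0.24 ± 0.06, adjusted p = 0.0439). Hmox1, Blvrb and Ftl1 also stand among the NRF2 targets, so the lists share these genes. Of all genes 6.33% were higher and 5% lower.

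Of 21 hypoxia-inducible factor targets outside glycolysis, 3 were higher and 1 lower, against 6.33% and 5% of all genes. The higher count was 0 without any 1 of KO replicate 2, KO replicate 3, WT replicate 2, WT replicate 3 or the IFN-gamma libraries, 1 without KO replicate 1 or the untreated libraries, 5 without the IL-4 libraries and 7 without WT replicate 1.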
